A study of Homo sapiens with 16 samples.

Results

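The 8 genes that kept strong HDGF peaks in glucose-starved human cells are described here, namely RBM34, C1orf35, ARF1, H3-3A, MAZ, LIN9, CNIH4 and RAB42. They are 8 of 20033 protein-coding genes placed on chromosomes 1 to 22, X and Y. They were chosen by their HDGF values in the lists described here. Of 2029 genes with an HDGF summit within 1000 bp of either gene end in both starved and control cells, 7 of the 8 stood among the first 8 places by −log10 q in control cells. The remaining place in that order belonged to RPS6, the gene of a small-subunit ribosomal protein, which is not a member. The other member, ARF1, had a summit within 1000 bp of an end in starved cells and none there in control cells. The last member inside this order, RAB42, had a −log10 q of 3.45 in starved cells and 13.2 in control cells. The first gene outside it, MVP, had 6.83 in starved cells and 12.4 in control cells. MAZ had 3.13 in starved cells and 14.7 in control cells, and the median of all HDGF peaks in starved cells was 3.13. Near the gene ends, strong HDGF thus refers to control cells, and not every member was strong there in starved cells. HDGF values at the 8 genes are therefore a description of how they were chosen, and nothing is tested on them.

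The study asked, per its design text, whether starvation stress or loss of a transcription factor goes along with a move of INTS13 on the genome. All samples were HEK293T, a line derived from human embryonic kidney, labelled wild type, and chromatin immunoprecipitation was read with 150 bp paired-end sequencing. HDGF was profiled in cells kept for 24 h in glucose-free medium and in cells of a control depletion. INTS13 was profiled in the starved cells, in cells depleted of HDGF for 72 h with pooled short interfering RNAs, and in cells of the control depletion. Each group had 2 labelled replicates, which made 10 immunoprecipitated samples and 6 inputs, 16 samples in all. The labels do not say whether the starved cells also carried a control depletion. HDGF was precipitated with 1 antibody in both conditions. The INTS13 antibody came from Proteintech in starved cells and from Bethyl Laboratories in HDGF-depleted and control cells, so for INTS13 the antibody and starvation cannot be told apart. Each immunoprecipitated group is represented by 1 peak list, 5 in all. Replicate error is therefore not available for any value, and no p-value is given.

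HDGF, hepatoma-derived growth factor, is a nuclear protein that binds chromatin through its PWWP domain, a fold that docks on methylated histone tails and DNA. INTS13 is a subunit of Integrator, a complex that joins RNA polymerase II near start sites, cleaves nascent RNA and ends much promoter-proximal transcription. Signal from such proteins can be confined to a start site or can run on over a whole gene body.

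In genome build hg38, 6 of the genes lie within 10.8 Mb of the long arm of chromosome 1. CNIH4 (chr1:224356803-224379452, plus strand) encodes a cornichon protein that helps cargo leave the endoplasmic reticulum. H3-3A (chr1:226061831-226072019, plus strand) encodes the replication-independent histone variant H3.3, and LIN9 (chr1:226231149-226309767, minus strand) encodes a core subunit of the MuvB complex, which controls cell-cycle genes. ARF1 (chr1:228082708-228099212, plus strand) encodes a small GTPase that recruits coat proteins to Golgi membranes. C1orf35 (chr1:228100731-228103325) lies 1518 bp beyond the downstream end of ARF1. RBM34 (chr1:235131183-235161250, minus strand) encodes an RNA-binding motif protein. RAB42 (chr1:28592265-28596666, plus strand) encodes a Rab-family GTPase and lies on the short arm of the same chromosome. MAZ (chr16:29806124-29811164, plus strand) encodes a zinc-finger factor that binds G-rich promoter elements.

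Annotated start sites were available for 7 of the 8 genes, with C1orf35 the exception. The promoters of 4 are shown because the results below give the positions of peaks in relation to their start sites. RBM34, H3-3A and CNIH4 had an INTS13 summit in starved cells within 250 bp of the start site shown, and MAZ had no peak over its start site in any list. Each runs 5′ to 3′ on the gene's own strand from 250 bases before the start site through 30 bases from it, taken from RefSeq (GRCh38.p14). They span chr1:235161221-235161500 (minus strand) for RBM34, chr1:226061581-226061860 (plus strand) for H3-3A, chr1:224356629-224356908 (plus strand) for CNIH4 and chr16:29806279-29806558 (plus strand) for MAZ. Capitals mark matches, on either strand, to the motifs named after them.
RBM34 promoter: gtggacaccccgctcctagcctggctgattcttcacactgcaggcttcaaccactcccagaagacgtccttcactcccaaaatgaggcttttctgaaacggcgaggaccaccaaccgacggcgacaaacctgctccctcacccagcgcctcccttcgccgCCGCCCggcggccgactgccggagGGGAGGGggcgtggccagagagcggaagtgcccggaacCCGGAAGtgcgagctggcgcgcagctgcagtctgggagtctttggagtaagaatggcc
H3-3A promoter: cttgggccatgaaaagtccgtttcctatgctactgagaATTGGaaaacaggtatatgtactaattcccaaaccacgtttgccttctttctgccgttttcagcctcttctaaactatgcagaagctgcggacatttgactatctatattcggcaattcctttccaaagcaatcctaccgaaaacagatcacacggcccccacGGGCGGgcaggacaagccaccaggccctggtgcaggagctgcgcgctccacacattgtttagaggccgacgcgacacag
CNIH4 promoter: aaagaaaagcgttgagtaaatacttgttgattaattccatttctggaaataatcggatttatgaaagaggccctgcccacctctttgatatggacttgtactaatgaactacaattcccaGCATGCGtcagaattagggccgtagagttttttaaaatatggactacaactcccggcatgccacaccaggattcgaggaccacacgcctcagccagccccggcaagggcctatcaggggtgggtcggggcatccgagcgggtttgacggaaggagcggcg
MAZ promoter: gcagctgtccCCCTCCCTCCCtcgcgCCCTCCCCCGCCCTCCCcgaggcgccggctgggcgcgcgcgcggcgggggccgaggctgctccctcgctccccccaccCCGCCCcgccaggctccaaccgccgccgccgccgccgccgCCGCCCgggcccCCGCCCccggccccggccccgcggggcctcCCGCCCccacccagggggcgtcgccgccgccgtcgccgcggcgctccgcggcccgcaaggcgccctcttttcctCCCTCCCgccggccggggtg

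In all, 9 short motifs were searched on both strands of 15841 promoter windows of the same length. The MAZ window, 87.1% G and C, held 5 matches to GGGAGGG, the G-rich element that MAZ itself binds, and some of these share bases with each other and with GGGCGG. The RBM34 window held 1 match to GGGAGGG, and 29.4% of all windows held at least 1. GGGCGG, the core of the GC box, was found in 5 of 7 members (RBM34, ARF1, H3-3A, MAZ and RAB42) and in 57.3% of all windows. RBM34 had a match to the ETS-type element CCGGAAG, which 13.8% of windows held. H3-3A had the CCAAT box, found in 35.8% of windows. CNIH4 had GCATGCG, the core of the NRF1 element, found in 4.99% of windows, and ARF1 had GATGGCG, the core of the YY1 element, found in 4.58%. No member held TATAAA (9.58% of windows), CACGTG (8.57%) or TGACGTC (4.52%), and the LIN9 window held none of the 9 motifs. CpG dinucleotides numbered 47 in the MAZ window, 39 in ARF1, 22 in RBM34, 14 each in H3-3A, LIN9 and CNIH4, and 7 in RAB42, beside a median of 20 over all windows. A match describes letters only, and no binding is read from it.

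The lists differed in size and depth. Peaks on the main chromosomes numbered 68138 for HDGF in starved cells and 106674 for HDGF in control cells. For INTS13 they numbered 15639 in starved cells, 105994 in HDGF-depleted cells and 31233 in control cells. The background that the deposited values imply, in reads per position before scaling, was 9.84 for HDGF in starved cells and 6.69 in control cells. For INTS13 it was 15.2 in starved cells, 4.20 in HDGF-depleted cells and 6.40 in control cells. Counts and coverage from different lists are given side by side below, and how far depth moves them was not tested.

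All 8 genes had peaks of both proteins in all 5 lists. The region counted was the gene body plus 5 kb beyond either end. Among all protein-coding genes, 43.1% had an HDGF peak in starved cells and 52.2% in control cells. For INTS13 the share was 12.5% in starved cells, 54.5% in HDGF-depleted cells and 14.1% in control cells. The 8 genes together held 149 HDGF peaks in starved cells and 103 in control cells. They held 60 INTS13 peaks in starved cells, 176 in HDGF-depleted cells and 154 in control cells. In all these totals a peak that reaches both the C1orf35 and the ARF1 region counts once for each gene. Since the choice of genes required HDGF in both conditions, nothing is read from the HDGF counts.

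How much of each gene lay under peaks was counted next. HDGF coverage comes from the lists by which the genes were chosen, so the choice can favour high HDGF coverage. In starved cells, 5 of 8 genes (C1orf35, ARF1, H3-3A, MAZ and RAB42) had at least 50% of their region under HDGF, and in control cells all 8 did. Over all protein-coding genes the shares were 1.1% in starved cells and 1.27% in control cells. INTS13 covered at least 50% of the region at 1 gene in starved cells (C1orf35), at 5 in HDGF-depleted cells (RBM34, C1orf35, ARF1, H3-3A and RAB42) and at 2 in control cells (C1orf35 and ARF1). The shares over all protein-coding genes were 0.0998% in starved cells, 0.414% in HDGF-depleted cells and 0.0599% in control cells. The median gene had 0% of its region under HDGF in starved cells and 0.234% in control cells. Given how the genes were chosen, nothing is read from their high HDGF coverage. This 50% count was chosen after the data had been seen.

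C1orf35 and ARF1 had the highest HDGF coverage of all 20033 genes in starved cells. HDGF lay over 97.3% of the C1orf35 region in starved cells and 83.2% in control cells. At ARF1 it lay over 95.7% in starved cells and 84.0% in control cells. Their regions overlap, and 1 peak of 10099 bp (chr1:228092668-228102766) ran from the ARF1 body through most of C1orf35 in starved cells, so the values are not independent. INTS13 covered 60.9% of the C1orf35 region in starved cells, 77.4% in HDGF-depleted cells and 53.9% in control cells. At ARF1 it covered 42.7% in starved cells, 80.4% in HDGF-depleted cells and 56.9% in control cells. Both genes stood in the first 26 of 20033 by coverage in all 3 INTS13 lists. High INTS13 coverage was not particular to them, since other genes of the same stretch of chromosome 1 had more in each list, as given below.

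H3-3A, MAZ and RAB42 followed by HDGF coverage in starved cells. H3-3A had 75.1% of its region under HDGF in starved cells and 86.0% in control cells. MAZ had 75.5% in starved cells and 66.5% in control cells, and RAB42 had 55.5% in starved cells and 54.3% in control cells. INTS13 covered less of these 3 regions than of C1orf35 and ARF1 in each list. It lay over 17.9% of the H3-3A region in starved cells, 50.3% in HDGF-depleted cells and 33.7% in control cells. The MAZ region had 6.51% in starved cells, 48.0% in HDGF-depleted cells and 24.1% in control cells. RAB42 had the lowest INTS13 coverage of the 8 genes in starved cells, 2.58%, with 52.6% in HDGF-depleted cells and 17.3% in control cells.

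At RBM34, LIN9 and CNIH4 less of the region lay under HDGF in starved cells than in control cells. RBM34 had 47.9% in starved cells and 79.8% in control cells. LIN9, the longest of the 8 genes at 78619 bp, had 48.6% in starved cells and 89.1% in control cells. CNIH4 had 41.7% in starved cells and 76.2% in control cells. Peaks at these 3 genes were more numerous in starved cells. This was not particular to them, since H3-3A was also covered less in starved cells and had 12 peaks there and 3 in control cells. LIN9 had 62 in starved cells and 38 in control cells, RBM34 had 29 in starved cells and 19 in control cells, and CNIH4 had 22 in starved cells and 16 in control cells. INTS13 covered between 5.70% (LIN9) and 8.19% (CNIH4) of these 3 regions in starved cells. It covered 37.1% (CNIH4) to 51.7% (RBM34) in HDGF-depleted cells and 19.3% (RBM34) to 31.6% (LIN9) in control cells.

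**Figure D1:**
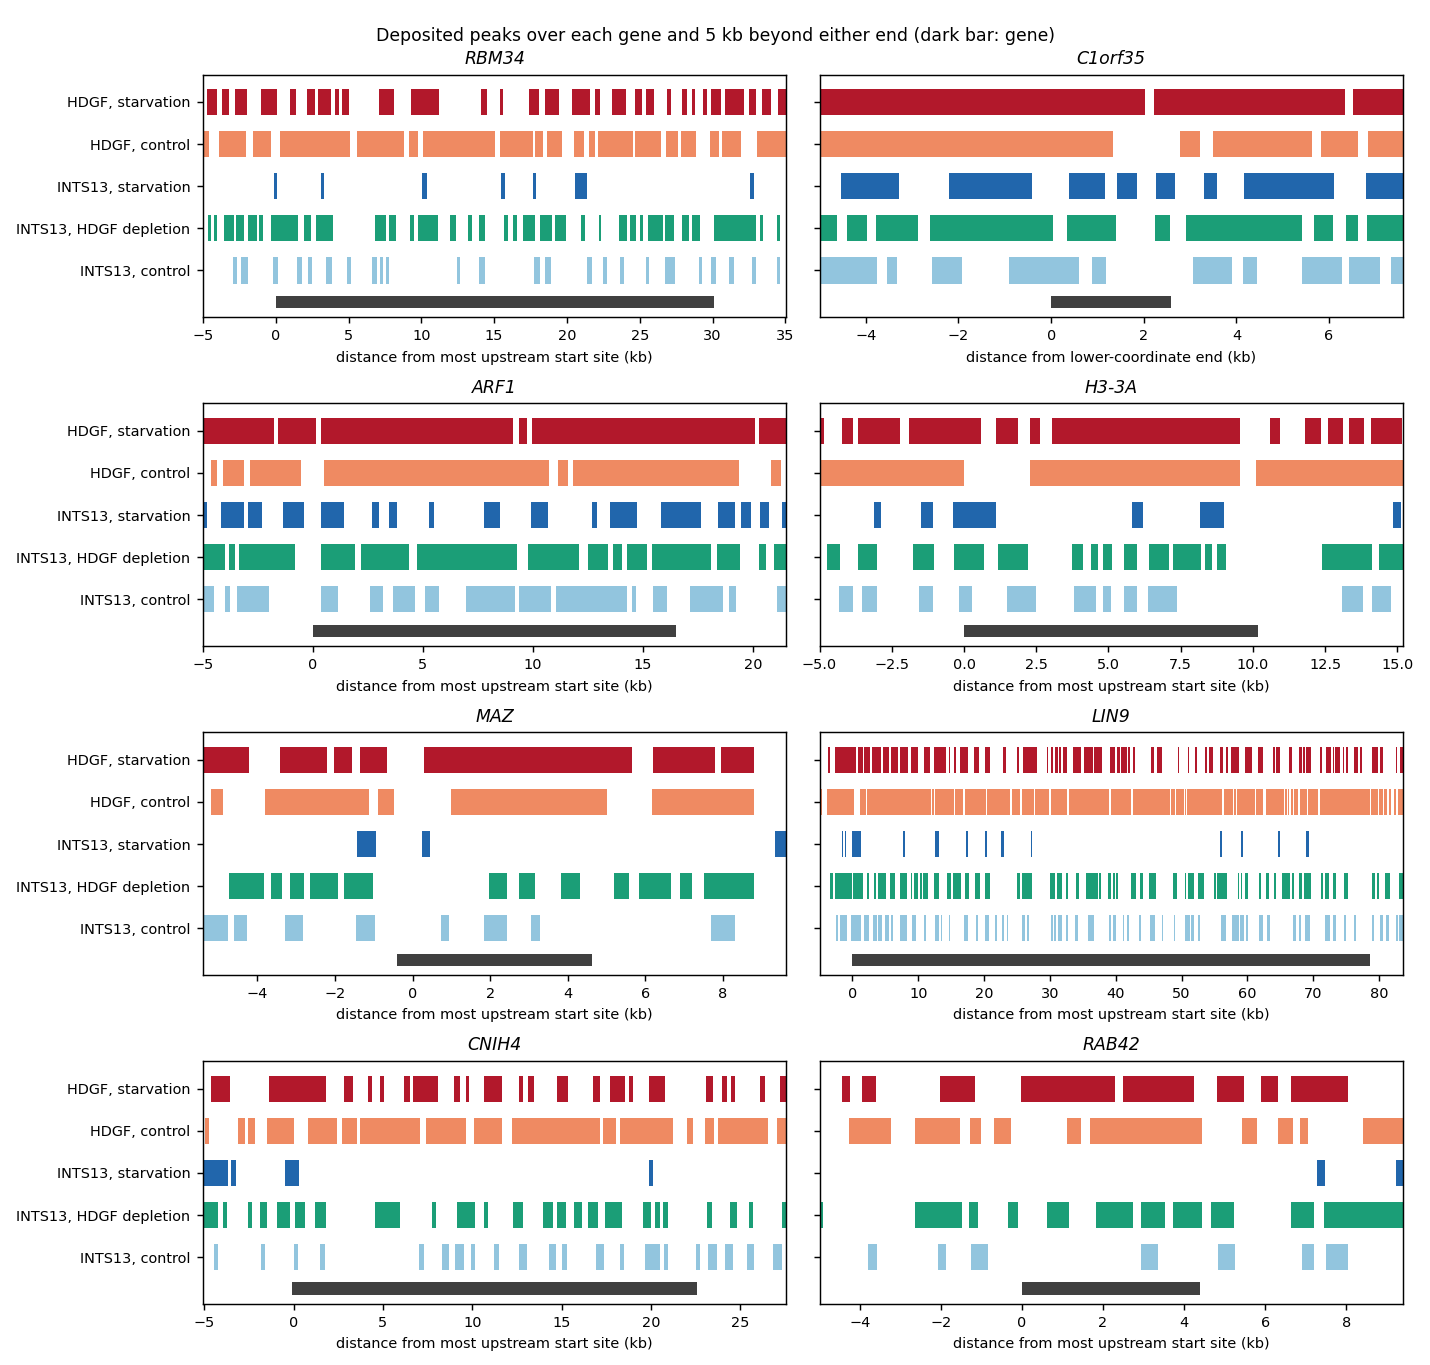
Peaks of the 5 lists along each of the 8 genes, with distance in kb on the horizontal axis and 1 row per list. Bars are peaks and the gene body is marked, and the HDGF rows of C1orf35 and ARF1 are filled nearly end to end (97.3% and 95.7% in starved cells).

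Several of these peaks were wide. Choosing genes by strong HDGF can also favour wide HDGF peaks, so nothing is read from their number. Of the HDGF peaks at the 8 genes, 14 of 149 in starved cells and 39 of 103 in control cells were wider than 2 kb, where a peak at C1orf35 and ARF1 counts once for each gene. In the full lists 1.77% of HDGF peaks in starved cells and 1.96% in control cells were that wide. The widest at any member was 10099 bp in starved cells (C1orf35 and ARF1) and 10227 bp in control cells, over the ARF1 body. H3-3A had 2 wide HDGF peaks in starved cells, of 2470 bp at its start site and 6510 bp over its body, and 3 in control cells. MAZ had 1 of 5365 bp over its body in starved cells, and the control peak there was 4005 bp. INTS13 peaks wider than 2 kb numbered 0 of 60 at the 8 genes in starved cells, 12 of 176 in HDGF-depleted cells and 3 of 154 in control cells.

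**Figure D2:**
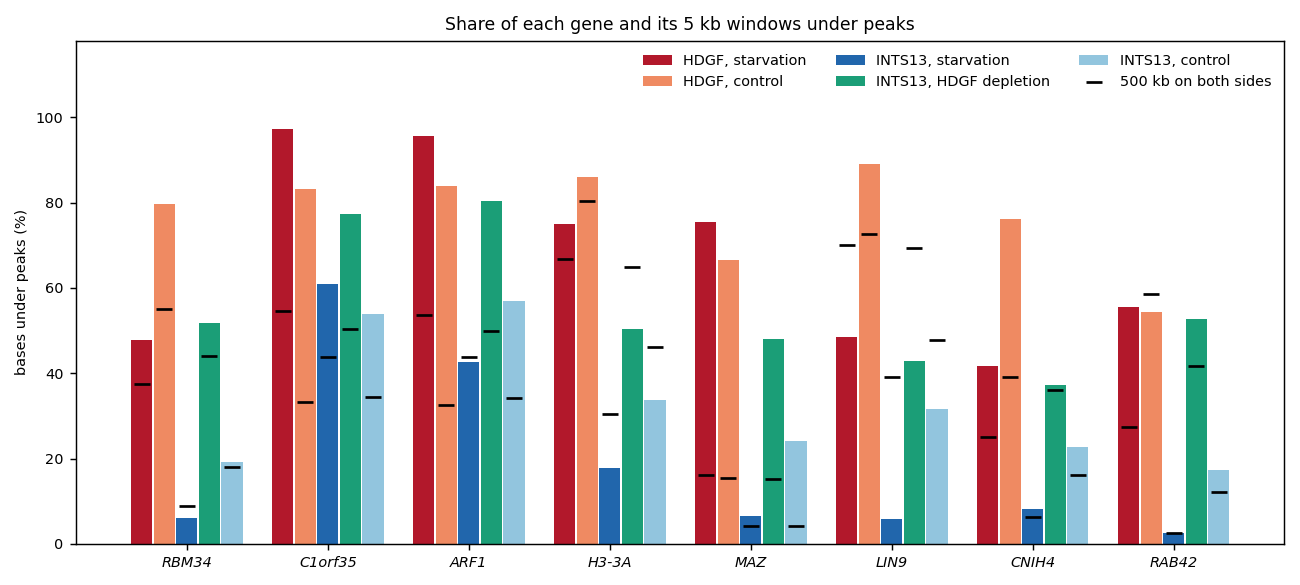
Percent of each gene's region (body plus 5 kb beyond either end) under peaks, for the 5 lists, as coloured bars that start at 0, with black dashes for the 500 kb on both sides of the region. HDGF coverage of the 8 genes runs from 41.7% to 97.3% in starved cells and from 54.3% to 89.1% in control cells.

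Except at RAB42, most bases under HDGF in starved cells at these genes were also under HDGF in control cells. The strongest starved-cell peak overlapped a control peak at 7 of 8 genes, CNIH4 being the exception, and 10.2% of all protein-coding genes met the same condition. The choice of genes favours this overlap, and nothing is read from it. Of the bases under HDGF in starved cells, the share also under HDGF in control cells was 92.8% at LIN9, 90.9% at H3-3A, 84.9% at ARF1, 84.2% at C1orf35 and 82.3% at RBM34. It was 80.5% at CNIH4, 78.1% at MAZ and 49.99% at RAB42. Control peaks covered 89.1% of the region at LIN9, 86.0% at H3-3A, 84.0% at ARF1, 83.2% at C1orf35 and 79.8% at RBM34. They covered 76.2% at CNIH4, 66.5% at MAZ and 54.3% at RAB42. The shared part was thus close to that coverage at every gene but MAZ, where it was further above it. At RAB42 it lay below the coverage. The large shared parts are therefore not read as HDGF kept in place. At RAB42 the strongest peak sat over the start of the gene in starved cells (chr1:28592243-28594558) and over its downstream part in control cells (chr1:28593953-28596708). Their summits were 2087 bp apart. At MAZ the strongest starved-cell peak (chr16:29806821-29812185) contained the whole strongest control peak (chr16:29807528-29811532), and the summits were 912 bp apart.

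The authors' fold enrichment of the strongest peak at each gene ranks the genes within a list. Each value is followed by its 95% exact Poisson limits, which cover counting error at the summit alone. In starved cells the HDGF fold was 5.85 (4.53 to 7.44) at the peak shared by C1orf35 and ARF1 and 5.04 (3.83 to 6.53) at H3-3A and at MAZ. It was 4.60 (3.44 to 6.02) at LIN9, 4.51 (3.37 to 5.92) at CNIH4, 4.24 (3.14 to 5.61) at RBM34 and 4.15 (3.06 to 5.51) at RAB42. The limits of all 8 genes overlapped. Overlapping limits do not show equal folds, and the genes were chosen by HDGF, so nothing is read from this order or from the overlap. In control cells the HDGF fold was 5.73 (4.18 to 7.67) at RBM34 and LIN9, 5.60 (4.07 to 7.52) at C1orf35 and ARF1, 5.46 (3.96 to 7.37) at H3-3A and MAZ, and 5.20 (3.74 to 7.07) at CNIH4 and RAB42. These limits overlapped too. Equal folds at genes far apart come from separate peaks with the same number of summit reads, such as 55 at both H3-3A and MAZ in starved cells.

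LIN9 led the INTS13 order in starved cells. Its strongest peak had a fold of 5.61 (4.56 to 6.83), followed by H3-3A at 4.51 (3.58 to 5.62), the peak shared by C1orf35 and ARF1 at 4.22 (3.32 to 5.30) and MAZ at 3.82 (2.97 to 4.84). RBM34 had 3.59 (2.77 to 4.58), CNIH4 3.47 (2.67 to 4.45) and RAB42 2.72 (2.02 to 3.60). Between neighbours in this order the limits overlapped, and only those of CNIH4 and RAB42 lay wholly below those of LIN9. The LIN9 value was the strongest of 13 peaks in a region of 88.6 kb. At CNIH4 it was the strongest of 4 in 32.65 kb, and at RAB42 of 2 in 14.4 kb. The limits do not cover this choice of the strongest peak, so the separation is not read as a difference between genes. In HDGF-depleted cells the INTS13 fold ran from 4.62 (2.998 to 6.83) at MAZ to 6.35 (4.40 to 8.89) at ARF1. In control cells it ran from 3.65 (2.43 to 5.28) at CNIH4 and RAB42 to 4.86 (3.43 to 6.71) at LIN9. The limits of all 8 genes overlapped within each of these lists.

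**Figure D3:**
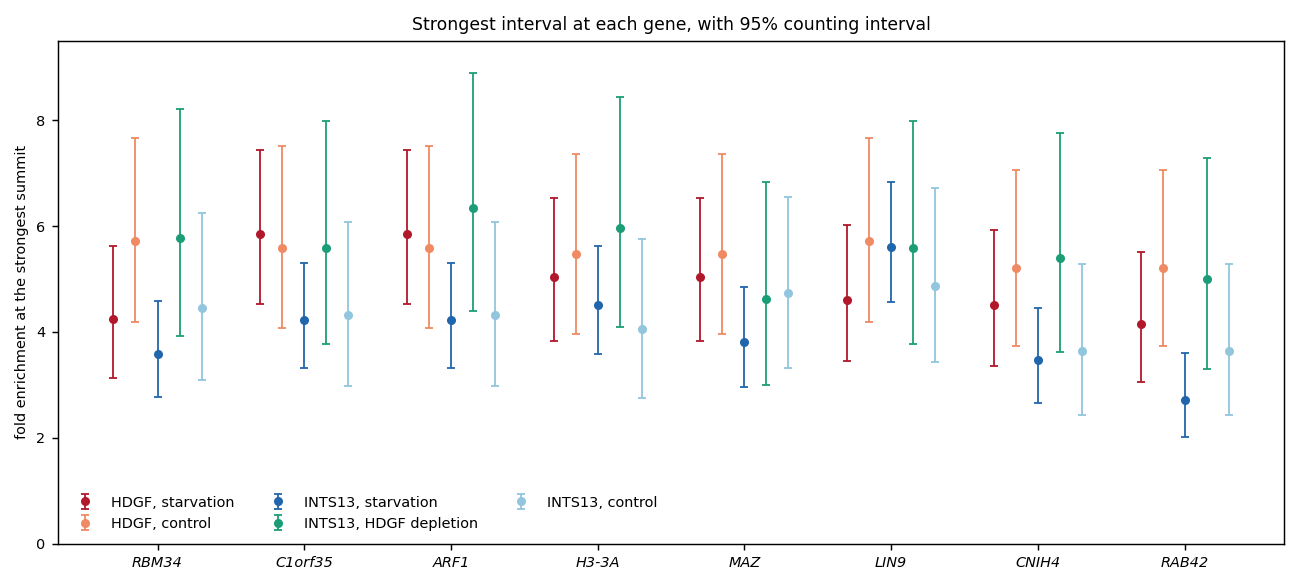
Fold enrichment of the strongest peak at each of the 8 genes in the 5 lists, as the authors' lists give it, with bars for the 95% exact Poisson limits from the reads at the summit. In starved cells LIN9 has the highest INTS13 fold (5.61) and RAB42 the lowest (2.72), and within the HDGF lists the bars of all 8 genes overlap.

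In control cells, HDGF peaks flanked the start sites of these genes and mostly did not cross them. At RBM34 HDGF ended 354 bp before the start site and resumed 300 bp after it, a gap of 653 bp in a region that was 79.8% covered. ARF1 had a gap of 1018 bp from 522 bp before to 497 bp after its first start site. The gap was 1484 bp at MAZ, from 486 bp before to 999 bp after. RAB42 had a gap of 1393 bp, from 278 bp before to 1116 bp after. At H3-3A an upstream peak of 5864 bp ended 4 bp past the first start site and was followed by a gap of 2292 bp. The upstream HDGF peak of CNIH4 ended 13 bp past its start site. LIN9 had HDGF over its most upstream start site and a gap of 862 bp over the other 2.

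In starved cells HDGF lay over a start site at 6 of 7 genes (RBM34, ARF1, H3-3A, LIN9, CNIH4 and RAB42), and in control cells at 3 of 7 (H3-3A, LIN9 and CNIH4). Over the 15841 genes with an annotated start site, 4.78% had one under HDGF in starved cells and 1.62% in control cells. RBM34 had a starved-cell peak of 1046 bp across its start site, with a fold of 2.81 (1.93 to 3.95) and its summit 104 bp upstream. At H3-3A the starved-cell peak reached from 1893 bp before to 576 bp after the first start site, and its summit lay 32 bp inside the gene. At CNIH4 it reached from 1366 bp before to 1816 bp after. MAZ was the gene without HDGF over its start site in starved cells, with a gap of 959 bp, and in control cells. An HDGF summit within 250 bp of a start site was found at 2 of 7 genes in starved cells (RBM34 and H3-3A) and at 0 of 7 in control cells, beside 5.19% of genes in starved cells and 1.87% in control cells. The genes were chosen by HDGF near gene ends, which can favour HDGF at start sites. Nothing is therefore read from how these counts compare with the shares over all genes.

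Start sites were also counted over all genes that HDGF covered widely. Of 184 genes with at least 50% of their region under HDGF in starved cells and an annotated start site, 91 (49.5%) had a start site under HDGF. In control cells it was 50 of 218 (22.9%). Within 250 bp of the start site the median coverage of these genes was 44.8% in starved cells and 0% in control cells, while the median over the whole region was 62.1% in starved cells and 66.8% in control cells. The start-site counts were chosen after the data had been seen. With a single list per condition, the difference between starved and control cells has no replicate check, and the starved list has a deeper background (9.84 reads per position in starved cells and 6.69 in control cells), whose part was not tested.

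INTS13 lay over a start site at some of these genes, and at neither MAZ nor RAB42 in any list. In starved cells its peaks lay over one at 5 of 7 genes (RBM34, ARF1, H3-3A, LIN9 and CNIH4), and the summit was within 250 bp at the same 5. Over the 15841 genes 3.88% had a start site under INTS13 in starved cells, and 4.45% had a summit that near. Summits in starved cells lay 2 bp inside RBM34, 7 bp before the CNIH4 start site and 104 bp inside H3-3A. At ARF1 and LIN9 they lay 93 bp past the nearest of 3 annotated start sites. At MAZ the nearest summit was 305 bp past the start site, in a peak that began 251 bp past it. The strongest starved-cell peak of RBM34 was not the one at its start site and had its summit 21002 bp into the gene. RAB42 had its nearest INTS13 summit 7460 bp downstream, beyond the gene, and no start-site peak.

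In HDGF-depleted cells 4 of 7 genes (RBM34, ARF1, H3-3A and LIN9) had INTS13 over a start site, against 4.28% of all genes. The same 4 did in control cells, against 1.74%. Summits within 250 bp were found at 4 of 7 genes in HDGF-depleted cells (RBM34, H3-3A, LIN9 and RAB42) and at 5 of 7 in control cells (RBM34, ARF1, H3-3A, LIN9 and CNIH4). The shares over all genes were 5.56% in HDGF-depleted cells and 2.33% in control cells. Counting only the most upstream start site of each gene, summits lay that near at 3 genes in starved cells, 2 in HDGF-depleted cells and 3 in control cells. At RBM34 the start-site peak was the strongest of the gene in HDGF-depleted cells, with a width of 1896 bp, a fold of 5.77 (3.93 to 8.21) and a summit 18 bp inside the gene. Its control peak at the start site was 308 bp wide, had a fold of 2.97 (1.89 to 4.47) and a summit 119 bp upstream. These folds come from separate lists and are set side by side without a test. In the RBM34 promoter printed above, the summits in starved and in HDGF-depleted cells both fall in the 30 bases that start at the start site, past the last motif match.

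LIN9 and H3-3A had the strongest start-site peaks of INTS13 in starved cells. At LIN9 a peak of 1326 bp in starved cells held a fold of 5.61 (4.56 to 6.83). The peak at this place was 1446 bp wide in HDGF-depleted cells, with a fold of 5.00 (3.31 to 7.29), and 1612 bp wide in control cells, with a fold of 4.86 (3.43 to 6.71). LIN9 has 3 annotated start sites, and the summits did not lie at the same one. The starved-cell summit lay 93 bp past the site at position 226309503, and the summits of HDGF-depleted and control cells lay 87 and 103 bp past the site at 226309164. The starved-cell and control summits were 349 bp apart. At H3-3A the peak was 1511 bp wide with a fold of 4.51 (3.58 to 5.62) in starved cells. In HDGF-depleted cells it was 1058 bp wide with a fold of 4.23 (2.69 to 6.37), and in control cells 456 bp wide with a fold of 3.11 (1.998 to 4.64). H3-3A has 4 annotated start sites. Its summits in starved and control cells lay 104 and 182 bp past the first. In HDGF-depleted cells the summit lay 598 bp past the first and 18 bp before the site at 226062447. At LIN9 the most upstream site was not under INTS13 in HDGF-depleted cells. Both genes therefore had INTS13 over at least 1 annotated start site in each of the 3 lists, but the covered sites differed between lists.

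**Figure D4:**
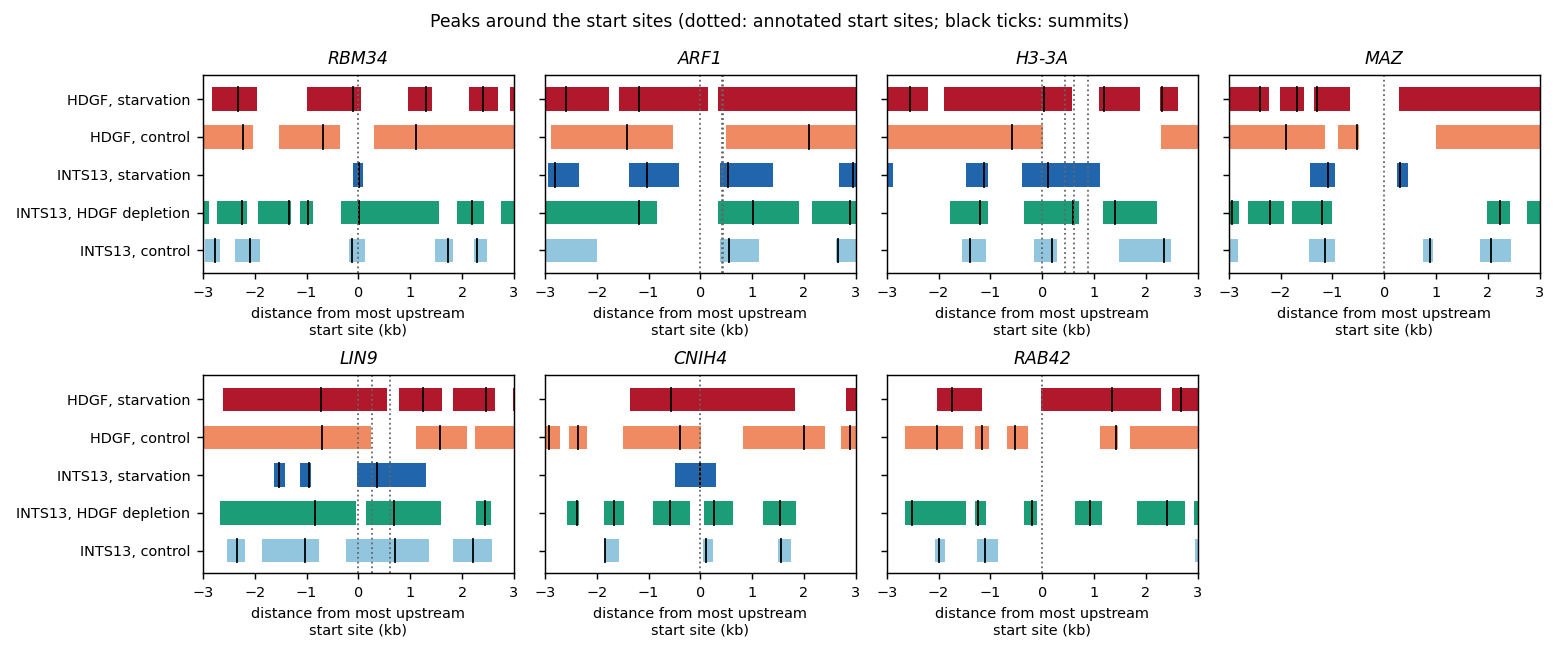
Peaks within 3 kb of the first annotated start site for the 7 genes with one, with distance from that site in kb on the horizontal axis and 1 row per list. Control HDGF peaks stop short of the site, or at most 13 bp past it, at 6 genes and reach 243 bp past it at LIN9, and INTS13 peaks of starved cells cover the site at RBM34, H3-3A, LIN9 and CNIH4.

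INTS13 shared a gene end with HDGF at all 8 genes in each of 3 pairings. The ends counted were the 5 kb on either side of each end. In starved cells INTS13 was set against HDGF of starved cells, and INTS13 of HDGF-depleted and of control cells was set against HDGF of control cells. Over all protein-coding genes 8.24% shared an end in starved cells, 26.8% in HDGF-depleted cells and 7.98% in control cells. An INTS13 peak overlapped an HDGF peak by at least 1 base at all 8 genes in each pairing, beside 7.49%, 16.5% and 5.68% of genes in the same order. The genes were chosen by HDGF near their ends, so the HDGF part of each pairing was largely given by that choice. The shares over all genes include genes without HDGF, and nothing is read from how the counts of members compare with them. Because HDGF covered most of these regions, the share of INTS13 bases under HDGF has to be read beside that coverage.

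In starved cells all INTS13 bases at C1orf35 (100%) and 99.5% at ARF1 lay under HDGF, where HDGF covered 97.3% and 95.7% of the regions. RBM34 had 91.9% of its INTS13 bases under HDGF, which covered 47.9% of the region. LIN9 had 80.7% against a coverage of 48.6%, CNIH4 75.8% against 41.7%, and H3-3A 85.5% against 75.1%. In these 4 genes more of INTS13 lay under HDGF than the coverage spans. MAZ was the other way round, with 59.7% of INTS13 bases under HDGF against a coverage of 75.5%. RAB42, with 371 bp of INTS13 in all, had 53.9% against 55.5%. In control cells the share at RBM34 was 81.3% beside a coverage of 79.8%, and at LIN9 86.2% beside 89.1%, so there it lay close to the coverage.

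Neighbouring genes share several of these peaks. RBM34 has TOMM20, which encodes a receptor of the mitochondrial import complex, 2345 bp beyond its downstream end, and ARID4B 5651 bp before its start. The second strongest HDGF peak of RBM34 in control cells, 6824 bp wide with a fold of 4.81, lay in TOMM20 (chr1:235121388-235128211). C1orf35 lies between ARF1 and MRPL55, a mitochondrial ribosomal protein gene 3359 bp away. MIR3620 lies in ARF1, and a divergent transcript, H3-3A-DT, overlaps the start of H3-3A. MAZ stands in a dense stretch, with KIF22 738 bp before it, PRRT2 1028 bp and PAGR1 4987 bp after it, and MVP-DT overlapping it. MIXL1 lies 4088 bp from LIN9, WDR26 5693 bp from CNIH4 and TAF12 6183 bp from RAB42. Also within 20 kb are MVP, TRNAU1AP, the non-coding genes SNHG12, LINC02809, LINC01703, MIR4742, SNORA14B, SNORA16A, SNORA44, SNORA61 and SNORD99, the pseudogenes CIAO2AP2 and YBX1P9, and several loci without a gene name. For peaks between such genes the lists do not say which gene they belong to.

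The 6 genes of the long arm of chromosome 1 lay in a stretch where every gene had peaks. From CNIH4 to RBM34 (chr1:224356803-235161250) stood 75 other protein-coding genes, and all 75 had a peak in each of the 5 lists. The median HDGF coverage of the 6 members was 61.8% in starved cells and 83.6% in control cells. That of the 75 other genes was 48.2% in starved cells and 72.6% in control cells. At least 50% coverage was reached by 34 of the 75 in starved cells and 52 in control cells. For INTS13 the medians of the 6 members were 13.0% in starved cells, 51.0% in HDGF-depleted cells and 32.6% in control cells, and those of the 75 were 13.6%, 42.9% and 22.9% in the same order. At least 50% INTS13 coverage was reached by 15 of the 75 in starved cells, 30 in HDGF-depleted cells and 6 in control cells. The highest INTS13 coverage among the 75 was 85.5%, 86.9% and 65.5% in the same order, above C1orf35 and ARF1 in each list. HDGF coverage of the 75 ran from 9.95% to 94.1% in starved cells and from 5.78% to 98.5% in control cells. All 6 members lay within that range in control cells, and CNIH4, H3-3A, LIN9 and RBM34 did in starved cells. C1orf35, at 97.3%, and ARF1, at 95.7%, lay above it in starved cells.

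The 5 Mb from 225 to 230 Mb of chromosome 1, which hold C1orf35, ARF1, H3-3A and LIN9 among 47 protein-coding genes, took up 3.40% of all HDGF peaks in starved cells and 2.50% in control cells. They took up 9.75% of INTS13 peaks in starved cells, 2.93% in HDGF-depleted cells and 9.37% in control cells. HDGF covered 66.9% of the 500 kb on both sides of the H3-3A region in starved cells and 80.4% in control cells, beside 75.1% of the H3-3A region in starved cells and 86.0% in control cells. INTS13 covered 17.9% of the H3-3A region in starved cells and 30.5% of those sides. At LIN9 the gene was covered less than its surroundings in starved cells. HDGF covered 48.6% of the LIN9 region and 70.2% of the 500 kb on both sides in starved cells. In control cells it covered 89.1% of the region and 72.8% of the sides. INTS13 covered 5.70% of the LIN9 region and 39.0% of those sides in starved cells. HDGF covered 75.5% of the MAZ region in starved cells and 66.5% in control cells, but 0.711% of the 500 kb before it in starved cells and 1.40% in control cells. The 500 kb after MAZ were covered to 31.7% in starved cells and 29.4% in control cells. MAZ thus stood near an edge between a nearly empty and a partly covered stretch. Around RAB42 both sides together were covered to 27.4% in starved cells and 58.5% in control cells.

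Some of the genes related in function to the members had HDGF peaks, most of them at lower coverage. These lists were drawn up with earlier results known and leave out the members. Of 11 genes of H3.3 and its chaperones, 8 had HDGF in starved cells and 9 in control cells, beside 43.1% of all genes in starved cells and 52.2% in control cells. None of the 11 reached 50% coverage in either. CABIN1, a subunit of the HIRA chaperone complex, had 36.3% coverage in starved cells and 24.3% in control cells, and H3-3B, the other gene for H3.3, had 8.57% in starved cells and 28.5% in control cells. Among 13 genes of the MuvB and DREAM complexes and their partners, 6 had HDGF in starved cells and 12 in control cells. RBBP4, a histone-binding subunit encoded on chromosome 1, was the only one to reach 50% in control cells, with 35.1% in starved cells and 78.3% in control cells. Of 6 zinc-finger relatives of MAZ, 3 had HDGF in starved cells and 6 in control cells. PATZ1 had 28.0% coverage in starved cells and 29.1% in control cells, and ZNF281 had 1.62% in starved cells and 36.1% in control cells.

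The family members of ARF1, CNIH4 and RAB42 were counted in the same way. Of 4 other ARF genes, 2 had HDGF in starved cells and 3 in control cells, with coverage up to 1.95% in starved cells and 15.5% in control cells. Of 3 other cornichon genes, 2 had HDGF in starved cells and 3 in control cells. CNIH3, which lies in the same stretch of chromosome 1 as CNIH4, had 30.6% coverage in starved cells and 33.1% in control cells. The relatives RAB39A and RAB39B had no HDGF in starved cells, and RAB39B had 2.94% coverage in control cells. INTS13 in starved cells was found at 3 of 11 H3.3 genes, 2 of 13 MuvB and DREAM genes, 1 of 6 MAZ relatives, 0 of 4 ARF genes, 1 of 3 cornichon genes and 0 of 2 RAB42 relatives. That share over all protein-coding genes was 12.5%. These counts are small and have no replicate check.

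RPS6, and genes with an HDGF summit within 1000 bp of an end in 1 condition only, were set beside the members. RPS6 had 8.67% of its region under HDGF in starved cells and 53.2% in control cells, and no INTS13 peak in starved cells. Of 7 genes with such a summit in control cells and none in starved cells (GPRIN2, PSEN2, CSNK1E, HOXB3, CCDC28B, LAMA4 and EIF4EBP2), 6 had HDGF within the wider region in starved cells. At least 50% of it was covered at 4 of them in starved cells and at 4 in control cells. CSNK1E, a casein kinase gene, had 95.4% coverage in starved cells and 93.7% in control cells, and GPRIN2 had 91.6% in starved cells and 79.1% in control cells. EIF4EBP2, a repressor of translation, had 0% in starved cells and 7.62% in control cells. Of 6 genes with such a summit in starved cells and none in control cells (NBPF1, TMEM63A, PRSS38, SESN2, YPEL1 and DEGS1), all 6 also had HDGF within this region in control cells. TMEM63A had 92.8% coverage in starved cells and 86.4% in control cells. A summit near a gene end and coverage of the whole region were thus different measures of the same lists.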

How the data were processed

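ChIP-seq of HDGF and INTS13 was measured in HEK293T cells. Reads were handled with MACS2, Picard, Bowtie, Trimmomatic and FastQC on build hg38, per the submitters' processing notes. The sources used here do not state versions, settings, or how replicates and inputs were used. The deposited peak names carry a threshold of 0.05. For every peak the deposited lists hold a fold enrichment (a ratio), a −log10 p-value, a −log10 q-value and a score from the authors' peak caller. All are the authors' values and were used to describe or rank peaks within a list. Replicates may be technical, and inputs were not used here.

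From these lists the peaks overlapping each gene body and 5 kb beyond either end were collected, with gene positions, start sites and promoters from RefSeq (GRCh38.p14). Covered bases, distances from summits to start sites, and overlaps of at least 1 base were computed with Python 3.11.15, pandas 2.3.3, numpy 2.4.6, scipy 1.17.1 and matplotlib 3.10.9. The strongest peak is the one with the highest −log10 q. Steps of the deposited fold and its −log10 p gave 1 background for each whole list. With it, the median error in −log10 p was at most 0.000115. Local input level and copy number were not examined, also not for the stretch of chromosome 1. The background gave the reads at each summit, from which 95% exact Poisson limits were computed. They cover counting error only, and a summit is the maximum of its peak, so they are no error of a difference between conditions. These steps were tested on simulated data.

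The members and lists were chosen with earlier results of these data known. Named genes are the 8 members, genes within 20 kb of them, up to 4 related genes per list with the highest −log10 q in starved cells, and RPS6 with 13 genes that had an HDGF summit near an end in 1 condition only. The start-site, gap and 50% coverage measures, and their alternatives, were added after the data had been seen.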

Additional observations from a re-analysis of the deposited data

How the results depend on the processing

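No paired analysis was possible because each immunoprecipitated group has a single peak list that carries no replicate number, and for the same reason no fit without a replicate was run. Across all alternatives, 86 values for counts of members stayed within 1.5 times the count reported and 21 did not. Among peaks with −log10 q of at least 10, the genes of 8 with a peak numbered 5 for HDGF in starved cells, and for INTS13 1 in starved, 5 in HDGF-depleted and 2 in control cells, instead of 8. The summit of the strongest HDGF peak of starved cells lay within 250 bp of a control HDGF summit at 1 gene. At 7 genes that strongest peak overlapped a control peak. Summits of weaker HDGF peaks were not counted here. With at least 50% of both peaks shared, INTS13 overlapped HDGF at 5 genes in starved cells and 5 in control cells, instead of 8.

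At least 50% of the region lay under INTS13 in starved cells at 0 genes with −log10 q of at least 5, instead of 1. In HDGF-depleted cells it did so at 2 genes with −log10 q of at least 5, at 2 among the 15000 strongest peaks and at 3 with 1 kb beyond the gene ends, instead of 5. In control cells the counts were 0 with −log10 q of at least 5 and 1 among the 15000 strongest, instead of 2. HDGF summits lay near a start site in starved cells at 1 gene within 100 bp and at 1 among the 15000 strongest, instead of 2, and in control cells at 1 within 500 bp, instead of 0. With only the most upstream start site of each gene, INTS13 summits lay near it at 3 genes in starved cells (instead of 5), 2 in HDGF-depleted cells (instead of 4) and 3 in control cells (instead of 5), and 2 start sites lay under INTS13 in HDGF-depleted cells (instead of 4). Within 100 bp of a start site, 0 genes had an INTS13 summit in control cells. Fewer or narrower places qualify under each of these settings by construction, except for the wider 500 bp and the 1 kb beyond the gene ends. With 1 kb the region itself shrinks, so the percent covered can rise or fall. Depth differed between lists, and its part in these counts was not tested.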
